A study of Mus musculus with 4 samples.

Results

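The genes described here encode secreted Wnt antagonists: *Sfrp1*, *Sfrp2*, *Sfrp4*, *Sfrp5*, *Frzb*, *Dkk1*, *Dkk2*, *Dkk3*, *Wif1*, and *Sostdc1*. They were chosen by symbol, and all 10 are among the 23946 gene symbols listed in each library. RNA was measured in CD51+;CD200+ skeletal stem/progenitor cells that were double sorted from wild-type CD-1 mice on postnatal day 3. There was 1 library for each of 3 sutures of the skull, the posterior frontal suture (PF), the sagittal suture (SAG), and the coronal suture (COR), and 1 for the tibial growth plate (GP), the reference. Of these sutures, PF is the one that fuses in young mice. The study states that all 3 sutures were still patent on postnatal day 3. The suture samples were dissected with the bone edges, the dura mater beneath, and the periosteum above, and the sort also required absence of CD45, Ter119, Tie2, Thy1, 6C3, and CD105. According to the study the cells came from many mice. The labels name no separate animals, so each tissue is a single sample.

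Wnt ligands are secreted proteins that bind Frizzled receptors and, for the canonical branch, the coreceptors LRP5 and LRP6, which leads to stabilization of β-catenin. Secreted antagonists act outside the cell in different ways. The secreted Frizzled-related proteins (*Sfrp1*, *Sfrp2*, *Sfrp4*, *Sfrp5*, and *Frzb*) carry a cysteine-rich domain like that of the Frizzled receptors and bind Wnt proteins, as does Wnt inhibitory factor 1 (*Wif1*) through another domain. Dickkopf 1 and 2 (*Dkk1* and *Dkk2*) and *Sostdc1*, also known as ectodin or Wise, bind the LRP coreceptors instead. In bone, canonical Wnt signaling promotes formation by osteoblasts, and several of these antagonists are known as local brakes on it. In the same study sFrp-1 and Dkk-1 proteins were applied to the SAG suture as inhibitors. The transcript levels of the antagonist genes in the sorted cells show which of them were expressed in each tissue without treatment.

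Levels are in FPKM, in which fragments are divided by the length of the transcript and the size of the library, so that different genes can be set side by side. Summed FPKM per library ran from 447174 to 550958. The number of sequenced fragments is not given with the values. Low values were multiplied by transcript length in kilobases, and the regular step that best matched them was sought. It was 0.0246 in SAG, 0.0294 in both COR and GP, and 0.0568 in PF. The match, where 1 is exact, was 0.33 in SAG, 0.38 in GP, 0.41 in COR, and 0.61 in PF. It was thus partial, and the true step may be a multiple or a fraction of the one found. If the step found is what 1 fragment was worth, PF had 43.3% of the depth of SAG. On that reading the lowest member value, *Sfrp5* in SAG, stood for about 46 fragments and the highest, *Sfrp2* in PF, for about 36693. These estimates bear on counting error only. No tissue was measured more than 1 time, so replicate error is unknown, no difference between tissues could be tested, and the order of close values cannot be resolved. Effects of the tissue and of the single library made from it cannot be told apart. *Itgav* and *Cd200*, the genes of the sorted antigens, were at 1 FPKM or more in each of the 4 libraries. Of 5 genes of antigens that the sort excluded, *Enpep* was also at 1 FPKM or more in each library. Its level was 7.05 FPKM in PF, 3.74 in COR, 2.74 in SAG, and 1.39 in GP. *Eng* was at 1.70 FPKM in PF and 1.07 in COR, and below 1 FPKM in SAG and GP. The remaining genes of that list were below 1 FPKM in each library. Fewer cells of a type and less RNA per cell cannot be told apart in such bulk samples.

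A positional view of the members is given first, in the mm9 build. The gene with the widest difference between sutures, *Sfrp2*, lies on chromosome 3 from 83570243 to 83578238 on the plus strand, with 3 exons. An antisense lincRNA, *Gm16790*, overlaps its exons on the other strand; that symbol is not among those listed, and the use of strand in the counting is not stated, so fragments of both genes cannot be told apart. No other member overlaps an annotated gene. *Dkk1* lies on chromosome 19, 30620353 to 30624155, minus strand, and *Sfrp5* on the same chromosome, 42272461 to 42276742, minus strand. *Dkk2* is on chromosome 3 (131748256 to 131843257), *Wif1* on chromosome 10 (120471016 to 120537706), and *Sfrp1* on chromosome 8 (24521974 to 24560104). *Sfrp4* is on chromosome 13 (19714973 to 19724863), *Frzb* on chromosome 2 (80252127 to 80287782), *Dkk3* on chromosome 7 (119259533 to 119302571), and *Sostdc1* on chromosome 12 (37040756 to 37045039). The members are therefore not clustered, apart from sharing chromosomes 3 and 19 in pairs. No stretch of 50 bases of a member's coding transcripts was found in another member, so the family members do not share reads of that length. Some stretches were shared with genes outside the group: 25 of 2378 in *Dkk1*, 10 of 4318 in *Sfrp1*, 8 of 4049 in *Sfrp4*, and 5 of 3645 in *Dkk2*.

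Because *Sfrp2* and *Dkk1* marked single sutures, as described below, sequence before their starts is shown. The 250 bases before the start of *Sfrp2* in RefSeq, on the plus strand, match mm9 exactly at chr3:83569993-83570242. They are 63.6% G or C and hold 16 CG dinucleotides. No capitals appear in this stretch, because the motif searched for, CTTTGNT or its reverse complement ANCAAAG (the core bound by TCF/LEF factors, the nuclear partners of β-catenin), was not found.
Sfrp2: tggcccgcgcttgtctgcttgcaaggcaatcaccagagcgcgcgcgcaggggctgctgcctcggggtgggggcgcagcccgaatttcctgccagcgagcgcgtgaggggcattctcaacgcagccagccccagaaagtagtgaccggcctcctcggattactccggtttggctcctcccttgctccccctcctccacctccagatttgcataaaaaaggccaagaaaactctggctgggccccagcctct

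In *Dkk1* the motif was found 1 time, starting 98 bases before the RefSeq start. The 30 bases around it lie at chr19:30624067-30624096 of mm9, minus strand, within the first exon as GENCODE draws it, and the capitals mark the match.
Dkk1: atcccatcccggCTTTGTTgtcttccctga

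Of the 6 members with a promoter window in the RefSeq table (*Sfrp2*, *Sfrp5*, *Frzb*, *Dkk1*, *Dkk2*, and *Wif1*), 1 held the motif on either strand, compared with 16.0% of all 32851 windows of the same length. A match to these letters is a description and not a binding site.

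The leading antagonists differed between tissues (the plot of levels by gene). PF-CD51+;CD200+ cells were dominated by *Sfrp2*, COR-CD51+;CD200+ cells by *Dkk3* and *Wif1* with the highest *Dkk1*, and GP-CD51+;CD200+ cells by *Wif1* and *Dkk3* with 6 of the 10 members at their highest. In SAG-CD51+;CD200+ cells *Dkk3* led as in COR, and these cells had no member at its highest and 5 at their lowest. Over the 13998 genes at 1 FPKM or more in some library, SAG was the highest library for 28.4% and the lowest for 27.4%, and GP the highest for 16.4%. In PF, COR, and GP every member was at 1 FPKM or more, and in SAG 9 of 10 were, the exception being *Sfrp5*. No member is listed at 0.

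**Figure D1:**
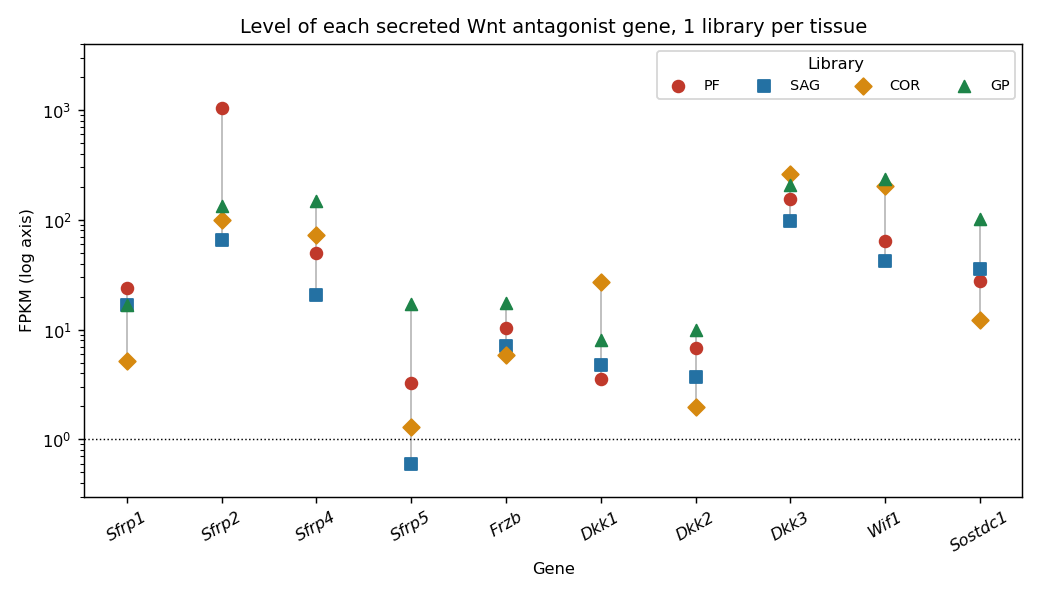
FPKM of each of the 10 genes (log axis) in the 4 libraries, 1 point per library, with a grey line from the lowest to the highest and a dotted line at 1 FPKM. *Sfrp2* in PF, at 1041 FPKM, lies far above its other libraries, *Dkk1* is highest in COR, and *Sfrp5* and *Sostdc1* are highest in GP.

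*Sfrp2* was at 1041 FPKM in PF, 99.8 in COR, 66.2 in SAG, and 133 in GP. The PF library was the only high one, and it stood 15.7-fold above SAG, 10.4-fold above COR, and 7.83-fold above GP. *Sfrp2* ranked 42 among all symbols of the PF library, whereas it ranked 1351 in SAG, 974 in COR, and 733 in GP. Within the family, *Sfrp1*, *Sfrp2*, and *Sfrp5* are close relatives.

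*Sfrp1*, the gene of the sFRP protein that the study applied, was at 23.7 FPKM in PF, 5.23 in COR, 16.7 in SAG, and 16.8 in GP. COR was the low library, at 4.52-fold below PF, and the SAG and GP values were nearly equal. *Sfrp5* was at 3.29 FPKM in PF, 1.29 in COR, 0.594 in SAG, and 17.1 in GP. It was thus a gene of the GP library, 28.8-fold above SAG and 5.21-fold above PF, and low in all sutures.

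*Sfrp4* and *Frzb* form the other branch of the family. *Sfrp4*, whose loss in humans and mice thins cortical bone, was at 49.8 FPKM in PF, 72.8 in COR, 20.6 in SAG, and 150 in GP. It was lowest in SAG and 7.29-fold higher in GP. *Frzb*, known from cartilage, was at 10.3 FPKM in PF, 5.85 in COR, 7.15 in SAG, and 17.5 in GP, and it was among the more even members. The 12 chondrocyte markers, each at 1 FPKM or more in every library, summed to 7075 FPKM in SAG, 3954 in GP, 236 in PF, and 216 in COR. Of the 12, 8 were highest in SAG, among them *Lect1* (1094 FPKM in SAG, 219 in GP) and *Matn1* (838 in SAG, 151 in GP). The other 4 were highest in GP, the highest library of *Frzb*, among them *Comp* (587 FPKM in GP, 300 in SAG) and *Matn3* (159 in GP, 68.2 in SAG). Between SAG and GP, 4 of the 12 were at least 3-fold higher in SAG and 0 lower. The part of cartilage cells in the *Frzb* levels was not tested.

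*Wif1*, a gene of osteoblasts and of cartilage, was at 64.6 FPKM in PF, 203 in COR, 42.1 in SAG, and 234 in GP. COR and GP were the high libraries and differed from each other by 1.16-fold, while SAG was the lowest. *Dkk1*, the gene of the other inhibitor that the study applied, was at 3.52 FPKM in PF, 27.0 in COR, 4.74 in SAG, and 8.05 in GP. COR alone was high, at 7.69-fold above PF, 5.70-fold above SAG, and 3.36-fold above GP. *Dkk2*, which can inhibit or enhance Wnt signaling depending on the cell, was at 6.80 FPKM in PF, 1.97 in COR, 3.68 in SAG, and 10 in GP. COR was thus the lowest library for *Dkk2* and the highest for *Dkk1*.

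*Dkk3*, a divergent member of its family that does not act as a typical LRP inhibitor, was at 156 FPKM in PF, 261 in COR, 96.7 in SAG, and 206 in GP. It was among the abundant members in every library and the most even, with a highest value 2.70-fold above the lowest. *Sostdc1*, which binds both LRP proteins and bone morphogenetic proteins, was at 27.6 FPKM in PF, 12.3 in COR, 36.0 in SAG, and 102 in GP. GP was 8.22-fold above COR and 2.82-fold above SAG. Choroid plexus is known to express *Sostdc1*, and 10 other choroid plexus markers summed to 5415 FPKM in SAG, 517 in PF, 223 in COR, and 140 in GP; 7 of them were at 1 FPKM or more in SAG and none was at 0 there. *Ttr* alone was 5103 FPKM of the sum in SAG. Of 8 markers tested between SAG and GP, 5 were at least 3-fold higher in SAG and 2 in GP, where *Sostdc1* was highest. The part of choroid plexus in the *Sostdc1* levels was not tested.

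The summed level of the 10 genes was 1386 FPKM in PF, 690 in COR, 294 in SAG, and 894 in GP. In PF *Sfrp2* made up 75.1% of the sum, compared with 22.5% in SAG, 14.5% in COR, and 14.9% in GP. Without it the sums were 345 FPKM in PF, 590 in COR, 228 in SAG, and 761 in GP, so that PF fell below COR and GP. *Dkk3* was the largest share in SAG, at 32.8%, and in COR, at 37.9%. *Wif1* was the largest in GP, at 26.2%, and made up 29.3% in COR but 4.66% in PF. The members that bind LRP coreceptors (*Dkk1*, *Dkk2*, and *Sostdc1*) summed to 37.9 FPKM in PF, 41.4 in COR, 44.5 in SAG, and 120 in GP. Their sum was close to level across the sutures, although *Dkk1* led it in COR and *Sostdc1* in the other libraries.

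**Figure D2:**
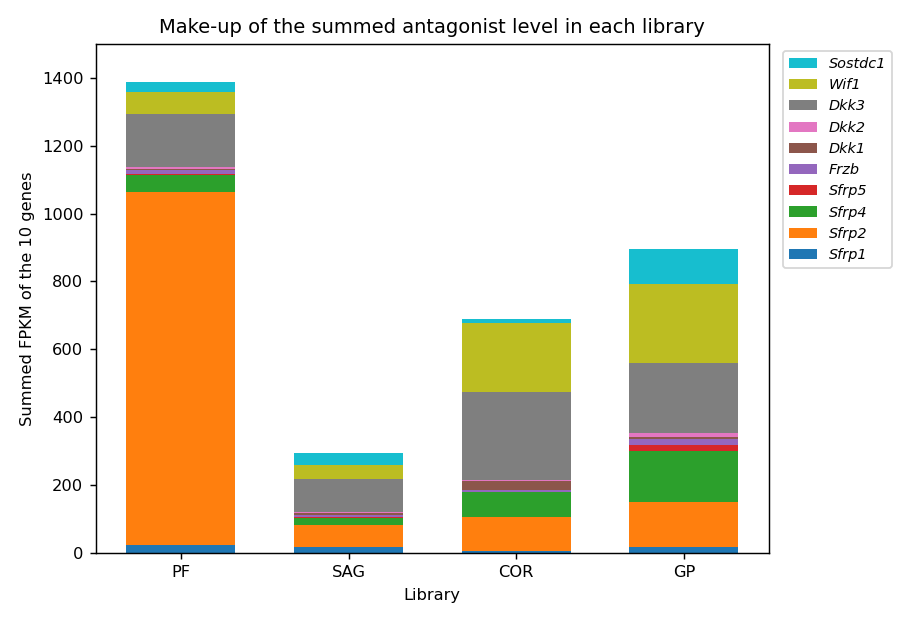
Summed FPKM of the 10 genes in each library, stacked by gene from 0. The PF column is the tallest, at 1386 FPKM, of which *Sfrp2* is 75.1%, and the SAG column is the shortest, at 294 FPKM.

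Differences between pairs of libraries were expressed as the log2 ratio of FPKM + 1, a scale that understates the change of low genes, and a ratio of 3-fold or more (1.58 on the log2 scale) was counted without a test, for genes at 1 FPKM or more in at least 1 library of the pair. The 6 pairs share their libraries, so their counts are not independent. Of 60 member ratios, 19 were 3-fold or more (the plot of ratios by pair).

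**Figure D3:**
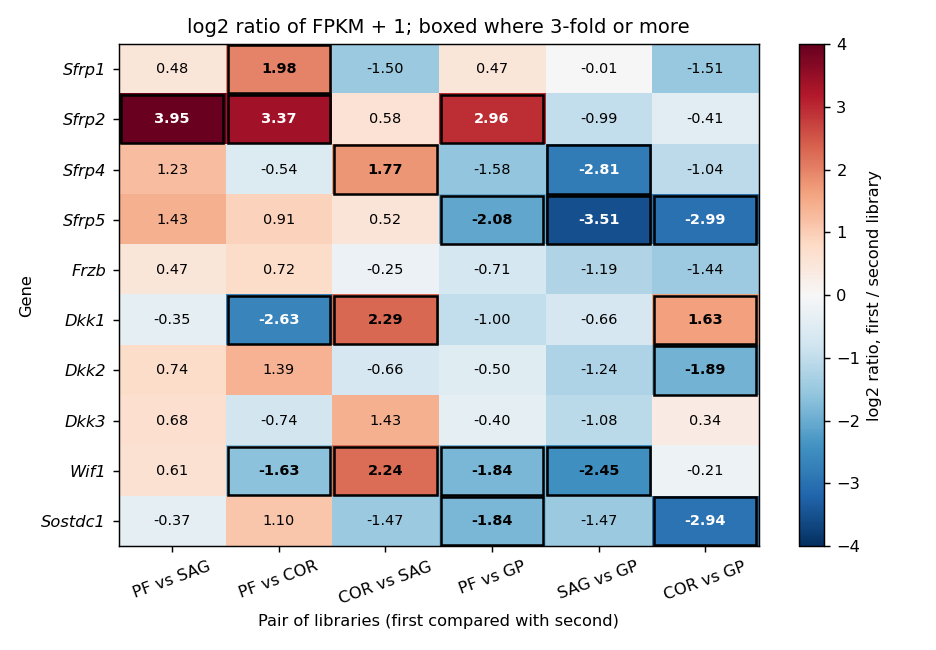
The log2 ratio of FPKM + 1 of each gene in each pair of libraries, red where the first library is higher and blue where the second is, with boxes at 3-fold or more. *Sfrp2* is boxed in the 3 pairs with PF, at 3.95, 3.37, and 2.96, and *Sfrp5* in the 3 pairs with GP, at -2.08, -3.51, and -2.99.

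PF, the midline suture that later fuses, was compared with SAG, the one that stays patent. Of 10 members 1 was at 3-fold or more, *Sfrp2*, while 15.7% of all genes tested were. Its log2 ratio of 3.95 lay above that of 99.8% of the tested genes. The other members were within 3-fold, from -0.37 for *Sostdc1* and -0.35 for *Dkk1* to 1.23 for *Sfrp4* and 1.43 for *Sfrp5*. In all, 8 members were higher and 2 lower in PF, with a median log2 ratio of 0.64 compared with 0.03 over all genes tested. Relative to *Gapdh* all 10 were higher, where the median over all genes was itself 0.51, and 3 were 3-fold or more, with 18.7% of all genes. With a pseudocount of 0.1 in place of 1 *Sfrp5* also passed, at 2.29, and so did 27.4% of all genes. The count of 1 in 10 was thus not above the share over all genes.

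Between PF and COR, 4 of 10 members were 3-fold or more apart, with 11.7% of all genes tested as background. *Sfrp2* (3.37) and *Sfrp1* (1.98) were higher in PF, and *Dkk1* (-2.63) and *Wif1* (-1.63) were higher in COR. *Wif1* fell short of the threshold relative to *Gapdh*, at -1.39, and after a correction for GC content, at -1.58. Of the others, *Dkk2* (1.39), *Sostdc1* (1.10), *Sfrp5* (0.91), and *Frzb* (0.72) were higher in PF, and *Dkk3* (-0.74) and *Sfrp4* (-0.54) in COR. COR and SAG, which both stay patent, differed by 3-fold or more in 3 of 10 members, against 9.25% of all genes tested. These were *Dkk1* (2.29), *Wif1* (2.24), and *Sfrp4* (1.77), each higher in COR. *Sfrp1* (-1.50) and *Sostdc1* (-1.47), higher in SAG, and *Dkk3* (1.43), higher in COR, lay just inside the threshold.

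Osteoblast markers, like *Dkk1* and *Wif1*, were higher in COR than in the other sutures. Their summed level over 8 genes was 11851 FPKM in COR, 8184 in GP, 2731 in PF, and 887 in SAG, and all 8 were at least 3-fold higher in COR than in SAG, with none at 0 in any library. *Spp1* alone was 8324 FPKM of the sum in COR and 6882 in GP. Between COR and GP, 3 of the 8 were at least 3-fold higher in COR, as *Dkk1* was, and 0 lower. All 8 were highest in COR, whereas *Wif1* was at 203 FPKM there and 234 in GP. Between PF and SAG, 3 of 7 tested were at least 3-fold higher in PF and 0 lower, whereas *Dkk1* was at 3.52 FPKM in PF and 4.74 in SAG. Beside the high *Sfrp2* of PF, 11 meningeal markers summed to 377 FPKM in PF, 108 in COR, 227 in SAG, and 208 in GP. *Crabp2* alone was 177 FPKM of the sum in GP. Of 9 tested in each pair, PF was at least 3-fold above SAG in 3 and below it in 1, above COR in 4 and below it in 0, and above GP in 6 and below it in 0, the 6 including *Foxd1* (135 FPKM in PF, 2.52 in GP) and *Aldh1a2* (62.1 in PF, 1.66 in GP). In PF 9 of the 11 were at 1 FPKM or more and *Slc22a6* was at 0. The smooth muscle and pericyte markers, 4 genes that were all at 1 FPKM or more in PF, summed to 564 FPKM in PF, 255 in COR, 49.5 in SAG, and 447 in GP, of which *Acta2* alone was 530 in PF. Of the 4, 1 was highest in PF, 1 in COR, and 2 in GP. PF was at least 3-fold above SAG in 3 and above COR in 2, and below either in 0. Between PF and GP, 0 of the 4 were 3-fold or more apart. Leukocyte markers, 4 genes, summed to 34.4 FPKM in PF, 5.44 in COR, 10.7 in SAG, and 8.08 in GP. Of the 4, 2 were at 1 FPKM or more in PF, where *Lyz2* alone was 30.2. Of 2 tested in each pair, PF was at least 3-fold above COR in 2, above SAG in 1, and above GP in 1, and below them in 0. The part of these cell types in the antagonist levels was not tested.

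Compared with GP, most members were lower in each suture. In PF 4 of 10 were 3-fold or more apart, with 12.0% of all genes tested: *Sfrp2* was higher in PF (2.96), and *Sfrp5* (-2.08), *Wif1* (-1.84), and *Sostdc1* (-1.84) were lower. Relative to *Gapdh*, *Wif1* and *Sostdc1* no longer passed, at -1.38 and -1.39. *Sfrp4*, at -1.58, lay just short of 3-fold (2.98-fold). In SAG 3 of 10 were 3-fold or more apart, with 8.66% of all genes tested, and all 3 were lower: *Sfrp5* (-3.51), *Sfrp4* (-2.81), and *Wif1* (-2.45). Each of the 10 members was lower in SAG than in GP, although *Sfrp1*, at -0.01, was level and became 0.05 with median-ratio scaling. The median log2 ratio of the members was -1.21, and that of all genes tested was 0.03. In COR 4 of 10 were 3-fold or more apart, with 4.40% of all genes tested. *Dkk1* was higher in COR (1.63), whereas *Sfrp5* (-2.99), *Sostdc1* (-2.94), and *Dkk2* (-1.89) were lower. The median over the members was -1.24, compared with 0.02 over all genes tested, in the pair of libraries that differed least across the genome. Tendon markers, 5 genes that were all at 1 FPKM or more in GP, summed to 3505 FPKM in GP, 1595 in PF, 1245 in SAG, and 762 in COR, and their part was not tested.

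The ligands that these proteins oppose were expressed at far lower levels. The 19 Wnt ligand genes summed to 61.5 FPKM in PF, 92.7 in COR, 34.3 in SAG, and 119 in GP (the plot of ligand and antagonist sums). The antagonist sum was 22.5 times the ligand sum in PF, 7.45 times in COR, 8.59 times in SAG, and 7.52 times in GP. Without *Sfrp2* the same ratio was 5.61 in PF, 6.37 in COR, 6.66 in SAG, and 6.40 in GP. PF had the highest ratio with *Sfrp2* and the lowest without it. These are sums of transcript levels and say nothing of the amount or affinity of the proteins.

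**Figure D4:**
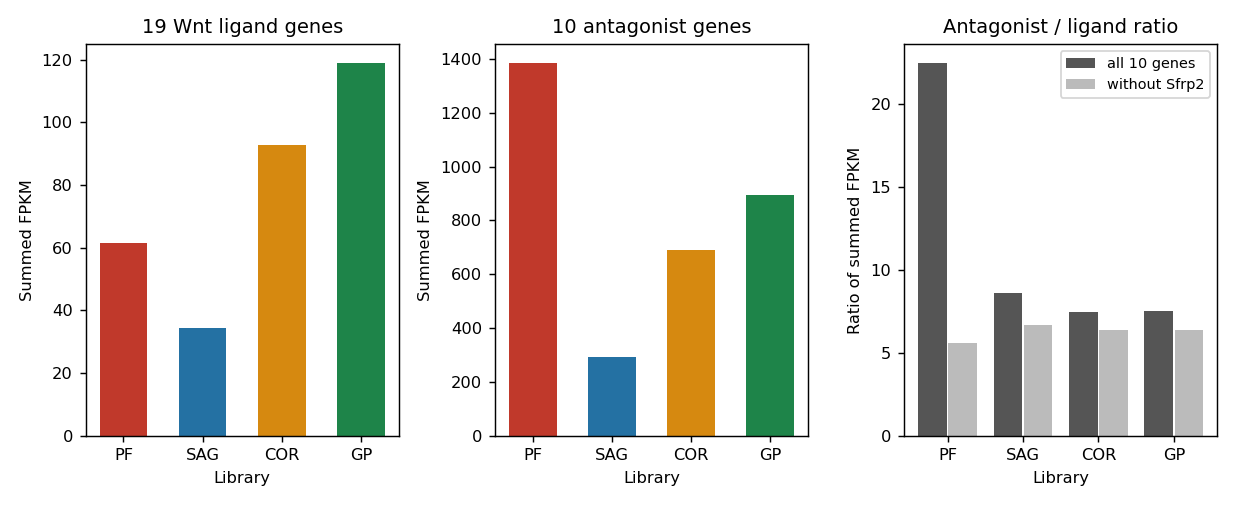
Summed FPKM of the 19 Wnt ligand genes and of the 10 antagonist genes in each library, and the ratio of the antagonist to the ligand sum with and without *Sfrp2*, with all axes from 0. With *Sfrp2* the ratio is 22.5 in PF and from 7.45 to 8.59 elsewhere, and without it the 4 libraries lie between 5.61 and 6.66.

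Of the Wnt ligand genes, 14 of 19 reached 1 FPKM in some library. Between COR and SAG, 5 of 11 tested were at least 3-fold higher in COR and 0 lower, and between SAG and GP 5 of 13 were lower in SAG and 0 higher. *Wnt16* was at 2.39 FPKM in PF, 0.4 in COR, 0.273 in SAG, and 19.6 in GP, and *Wnt5b* at 14.9, 41.5, 3.25, and 29.8 in the same order. *Wnt5b* and *Wif1* thus shared the feature that SAG was the lowest library and COR and GP were the highest. *Wnt10b*, *Wnt7b*, and *Wnt10a* were highest in COR, the library with the highest *Dkk1*, at 6.70, 6.29, and 5.32 FPKM.

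The cell-surface partners of the members were *Kremen1*, *Kremen2*, *Lrp4*, *Lrp5*, and *Lrp6*, of which 3 or 4 were tested in each pair. On the scale of FPKM + 1, 0 of them were 3-fold or more apart in any of the 6 pairs. As background 4.40% to 15.7% of all genes tested were, so a count of 0 in so few genes is near that share. That scale understates change in *Lrp4* and *Lrp5*, which were at most 1.96 and 1.25 FPKM. *Kremen1*, a receptor through which Dickkopf proteins remove LRP6 from the membrane, was at 9.68 FPKM in PF, 30.9 in COR, 13.8 in SAG, and 10.9 in GP, highest where *Dkk1* was highest and just short of 3-fold between PF and COR (-1.58), and *Kremen2* is listed at 0 in each library. *Lrp6* was at 11.3 FPKM in PF, 6.33 in COR, 7.56 in SAG, and 5.21 in GP. Among 15 receptor genes, *Fzd2* (58.2 FPKM) and *Fzd7* (34.9 FPKM) were highest in PF, beside *Sfrp2*, and *Fzd9* (161 FPKM) and *Fzd10* (6.10 FPKM) were highest in SAG. *Fzd4* was at 7.01 FPKM in PF and 1.61 in COR.

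Of 10 other inhibitors at or outside the membrane, *Igfbp4*, an IGF-binding protein that can also bind LRP6 and Frizzled 8, was the one 3-fold or more apart in any pair. It was at 2464 FPKM in PF, 708 in COR, 728 in SAG, and 796 in GP, so PF was high as for *Sfrp2*. *Sost*, the gene of sclerostin in osteocytes, was at 1.64 FPKM in COR, 1.02 in GP, and 0.0668 in SAG, with PF listed at 0. *Dkk4* is listed at 0 throughout. Agonists varied as well: *Rspo3* was at 23.5 FPKM in PF, 6.22 in COR, 50.3 in SAG, and 21.8 in GP, and *Rspo1* at 12.2, 6.40, 4.18, and 0.325 in the same order. *Lgr5*, a receptor for R-spondins, was at 10.8 FPKM in PF, 0.885 in COR, 0.987 in SAG, and 9.20 in GP. *Lgr6*, a related receptor, was highest in GP at 6.66 FPKM, and *Ndp*, a ligand of Frizzled 4, was highest in SAG at 6.38 FPKM.

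Transcripts that often follow canonical Wnt signaling had no common direction beside the antagonists. Of 13 such genes, 3 were highest in PF, 3 in COR, 4 in SAG, and 3 in GP. Among them *Axin2* was below 1 FPKM in each library and so was not tested in any pair. Its level was lowest in PF, at 0.125 FPKM, with 0.695 in COR, 0.977 in SAG, and 0.512 in GP. Between PF and COR, 1 of 10 tested was at least 3-fold higher and 1 lower in PF, and between PF and SAG 2 of 11 were higher and 2 lower. *Tcf7* was at 10.5 FPKM in PF, 61.8 in COR, 6.83 in SAG, and 6.06 in GP, the same single high library as for *Dkk1*. *Lef1* was at 0.180 FPKM in PF, 1.88 in COR, 6.15 in SAG, and 2.87 in GP, and *Sp5* was at 18.9 FPKM in SAG and near 0 elsewhere. *Ccnd1* was at 17.3 FPKM in PF, 41.4 in COR, 4.37 in SAG, and 43.3 in GP, with SAG lowest as for *Wif1*.

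The genes nearest in pattern to each member were found by Euclidean distance over mean-centred log2(FPKM + 1) in the 4 libraries, among 9792 other genes at 5 FPKM or more in some library. With 4 points a short distance is easily reached, and the lists changed when SAG was left out: at most 1 of 3 nearest genes was shared. For *Wif1* the nearest were *Col24a1* (distance 0.17), *Sema3d* (0.23), and *Igsf10* (0.28), for *Dkk2* they were *Itga1* (0.10), *Lrrtm1* (0.21), and *Meg3* (0.27), and for *Dkk1* they were *Pde8a* (0.34), *Wnt10b* (0.39), and *Wnt10a* (0.43). *Sfrp2* had 1 gene within 0.5, *Ly86* (0.44), followed by *Gap43* (0.66) and *Gltpd2* (0.68), whereas *Sfrp1* had 26, of which *Hist4h4* (0.21), *A4galt* (0.21), and *Ppm1l* (0.23) were nearest. *Sfrp4* lay nearest to *Lsp1* (0.28), *Ly6c1* (0.40), and *Akr1b8* (0.42). *Sfrp5* lay nearest to *Art3* (0.39), *Hoxd8* (0.43), and *Klf14* (0.50), and *Sostdc1* to *Rasl11a* (0.24), *Skap2* (0.41), and *Vipr2* (0.45).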

How the data were processed

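Total RNA of CD51+;CD200+ cells double sorted by FACS was amplified with a low-input cDNA kit and sequenced, with 1 library each for PF, SAG, COR, and GP. Reads were aligned by the authors to the mm9 genome with STAR (2.5.1b), and they estimated FPKM per gene symbol with Cuffdiff of Cufflinks (2.2.1). The deposited values are FPKM, and the library scaling within Cuffdiff is not given in the sources used here. Depth is unknown and was approximated from the regular step that best matched low values of FPKM times kilobases of transcript. Genes with 1 coding transcript longer than 1500 bases were used for it. Groups followed the sample titles.

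Pairs of libraries were compared as differences of log2(FPKM + 1) over genes at 1 FPKM or more in at least 1 library of a pair, and 3-fold or more was counted with no test, since each tissue has 1 library. The members and lists were chosen with earlier results of these data known. All 10 members were described. From the other Wnt pathway lists, genes at 5 FPKM or more somewhere and past 3-fold in some pair were named, at most 5 per list by ratio. Beside each member of that kind the 3 genes nearest in pattern were named. The cell type markers were given mainly as sums and counts. Only some of their genes were named, so unnamed markers may also have passed this rule. *Axin2*, *Kremen1*, *Kremen2*, *Lrp6*, *Sost*, *Dkk4*, and *Slc22a6* were named after their values were seen, as partners or relatives of the members. *Eng* was also named after its values were seen, as the gene of an antigen that the sort excluded. Alternatives were a pseudocount of 0.1 or none, median-ratio scaling, quantile normalization, values relative to *Gapdh*, other expression floors, a threshold of 2-fold, and a lowess correction for transcript GC content (span 0.3). Positions and transcripts came from GENCODE vM1 (mm9), which had a coding transcript for 80.8% of symbols, and promoter sequences from RefSeq (GRCm38.p6), placed on mm9 by exact match. Python 3.11.15, numpy 2.4.6, pandas 2.3.3, statsmodels 0.14.6, and matplotlib 3.10.9 were used, and the counting step was tested on simulated data.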

Additional observations from a re-analysis of the deposited data

How the results depend on the processing

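Of the 19 member ratios at 3-fold or more, 16 stayed there under every alternative that gave a value, 3 fell short under at least 1 of them, and 0 changed sign. The 3 were *Wif1* in PF vs COR and *Wif1* and *Sostdc1* in PF vs GP, whose values are given above. Outside PF vs SAG, other ratios reached 3-fold only under some alternatives. They were *Dkk2* in PF vs COR, *Sfrp1* and *Dkk3* in COR vs SAG, *Sfrp4* in PF vs GP, and *Sfrp1* and *Frzb* in COR vs GP. The share of all genes also rose in PF vs COR, from 11.7% to 22.8% with a pseudocount of 0.1 and 20.2% with none. The number of members at 3-fold or more in PF vs SAG, 1 as reported, was 2 with a pseudocount of 0.1 (27.4% of all genes tested), with no pseudocount (24.8%), with quantile normalization (15.7%), and after the GC correction (15.4%), and 3 relative to *Gapdh* (18.7%). The number in PF vs GP was 2 relative to *Gapdh* (14.4%). At a threshold of 2-fold the numbers were 3 in PF vs SAG (34.7% of all genes tested), 6 in COR vs SAG (20.1%), 7 in SAG vs GP (18.0%), and 7 in COR vs GP (9.95%). The cause was not tested, apart from the lower threshold. Division by *Gapdh* moved the median log2 ratio of all genes tested in PF vs SAG from 0.03 to 0.51, and median-ratio scaling moved it to -0.08. No paired analysis was possible because no tissue had more than 1 library. The alternatives chosen after seeing the data were no pseudocount and, for nearest patterns, leaving out SAG. Depth is unknown. If the inferred step is that of 1 fragment, PF was the shallowest library, and its *Dkk1* and *Sfrp5* values stood for about 150 and 110 fragments.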

Other observations

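The members also differ in their transcripts. Coding length ran from 621 bases in *Sostdc1* to 1140 in *Wif1*, and GC content of the longest coding transcript from 44.4% in *Sfrp4* to 60.3% in *Sfrp5*, compared with a median of 50.3% over genes at 1 FPKM or more. No explanation was tested for any difference between the libraries.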
